A study of Mus musculus with 8 samples.

Results

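The genes described here are 10 that mark the brush border and the absorptive epithelium of the intestine: Vil1, Cdh17, Lgals4, Lgals2, Fabp2, Guca2a, Guca2b, Apoa1, Apoa4 and Alpi. They were picked by name from the 54532 genes of the deposited count table, without mucins, trefoil factors or the Cdx factors. All 10 were found, each with 1 entry in the table, and 6 of them passed the filter on low counts that left 15862 genes for testing. RNA came from the corpus, the part of the stomach whose glands secrete acid and pepsinogen, of untreated mice with a mixed background (C57BL/6 and CD1). Both groups carried 1 Six2-Cre transgene (Six2-Cre+/-), in which the Six2 promoter drives the recombinase. The 4 controls were PKAcaR wt/wt, with wild-type copies of the gene for protein kinase A catalytic subunit alpha, and the 4 mutants were PKAcaR fl/wt, with 1 floxed copy. The floxed allele is known to give a form of the kinase that its regulatory subunits no longer restrain once Cre has acted. Each library is 1 animal. No source used here gives age or sex.

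The brush border is the carpet of actin-cored microvilli on the absorptive cells of the small intestine. Villin bundles its actin, cadherins link its cells and microvilli, hydrolases such as alkaline phosphatase sit in its membrane, and binding proteins and apolipoproteins beneath it take up fat and export it. A healthy gastric corpus lines its glands with pit, neck, parietal, chief and endocrine cells and has no absorptive enterocytes, while the appearance of intestinal-type epithelium in the stomach is known as intestinal metaplasia. Several of these genes are also active in ordinary stomach epithelium, and Vil1 is a known gene of tuft cells, so their presence alone does not mark intestine.

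The 10 genes did not move together. Vil1 and Lgals4 rose in the mutant corpus, by 3.72-fold and 2.68-fold, and Apoa1 and Apoa4 fell, by 14.1-fold and 18.9-fold. The calls of Lgals4 and Apoa1 were lost without any 1 control, while those of Vil1 and Apoa4 held. Lgals2 and Fabp2 lay lower in every mutant than in any control but did not pass the test with all 8 libraries. Groups without overlap, in either direction, were found for 30.3% of all genes tested. Cdh17, Alpi, Guca2a and Guca2b had at most 15 reads in any library and were not tested. Of all 15862 genes tested, 20.2% were called by the same rule (an adjusted p under 0.05 in edgeR's quasi-likelihood test, adjusted by Benjamini-Hochberg), 9.39% as higher and 10.8% as lower, so calls in either direction were common in this comparison.

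Library totals lay between 18184281 and 23814720 reads. Values are given as CPM, reads relative to the TMM-scaled size of the library, unless FPKM, which the authors scaled by gene length as well, is named. Prkaca, the gene of the altered kinase subunit, went from 80.2 ± 4.05 to 37.9 ± 1.87 CPM (SD, n = 4 each). Its log2 fold change was -1.08 (SE 0.085, edgeR adjusted p = 0.000604). The markers of the corpus were high in controls, where parietal markers summed to 16920 to 22987 CPM and pit cell markers to 39296 to 63921 CPM. Mutant 2 stood apart. Across genes, its log2 CPM had correlations of 0.839 to 0.881 with mutants 1, 3 and 4, which reached 0.977 or more with one another. Control 3 and mutant 3 held transcripts of forestomach squamous epithelium (484 and 3776 reads of Krt5, against at most 1 elsewhere). In bulk tissue, fewer cells of a type and less RNA per cell cannot be told apart.

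In controls the order of the levels per length put 2 genes far above the rest. Apoa1 averaged 1533 ± 302 FPKM and Lgals2 1289 ± 559 (SD, n = 4), and their ranges overlapped. Lgals4 followed at 77.8 ± 18.8 FPKM and Apoa4 at 24.5 ± 3.08. Fabp2, at 10.7 ± 2.48 FPKM, and Vil1, at 10.3 ± 1.53, overlapped each other. Guca2b (0.504 ± 0.257 FPKM), Alpi (0.182 ± 0.0561) and Guca2a (0.131 ± 0.0987) were close to the limit of detection, with Alpi and Guca2a overlapping, and Cdh17 had no reads. In mutants Lgals2 (332 ± 296 FPKM), Lgals4 (209 ± 99.0) and Apoa1 (109 ± 101) overlapped at the top. Vil1 followed at 38.3 ± 14.1 FPKM, below all Lgals4 values and inside the ranges of Lgals2 and Apoa1, whose lowest values are those of mutant 2. Fabp2 (2.77 ± 1.86 FPKM) and Apoa4 (1.30 ± 1.27) overlapped each other. The reads of the 10 genes together made up 0.173% to 0.321% of a control library and 0.0348% to 0.164% of a mutant library. Apoa1 gave 57.2% to 73.2% of them in controls and 0.646% to 22.8% in mutants, where Lgals4 gave 37.9% to 63.8%.

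**Figure D1:**
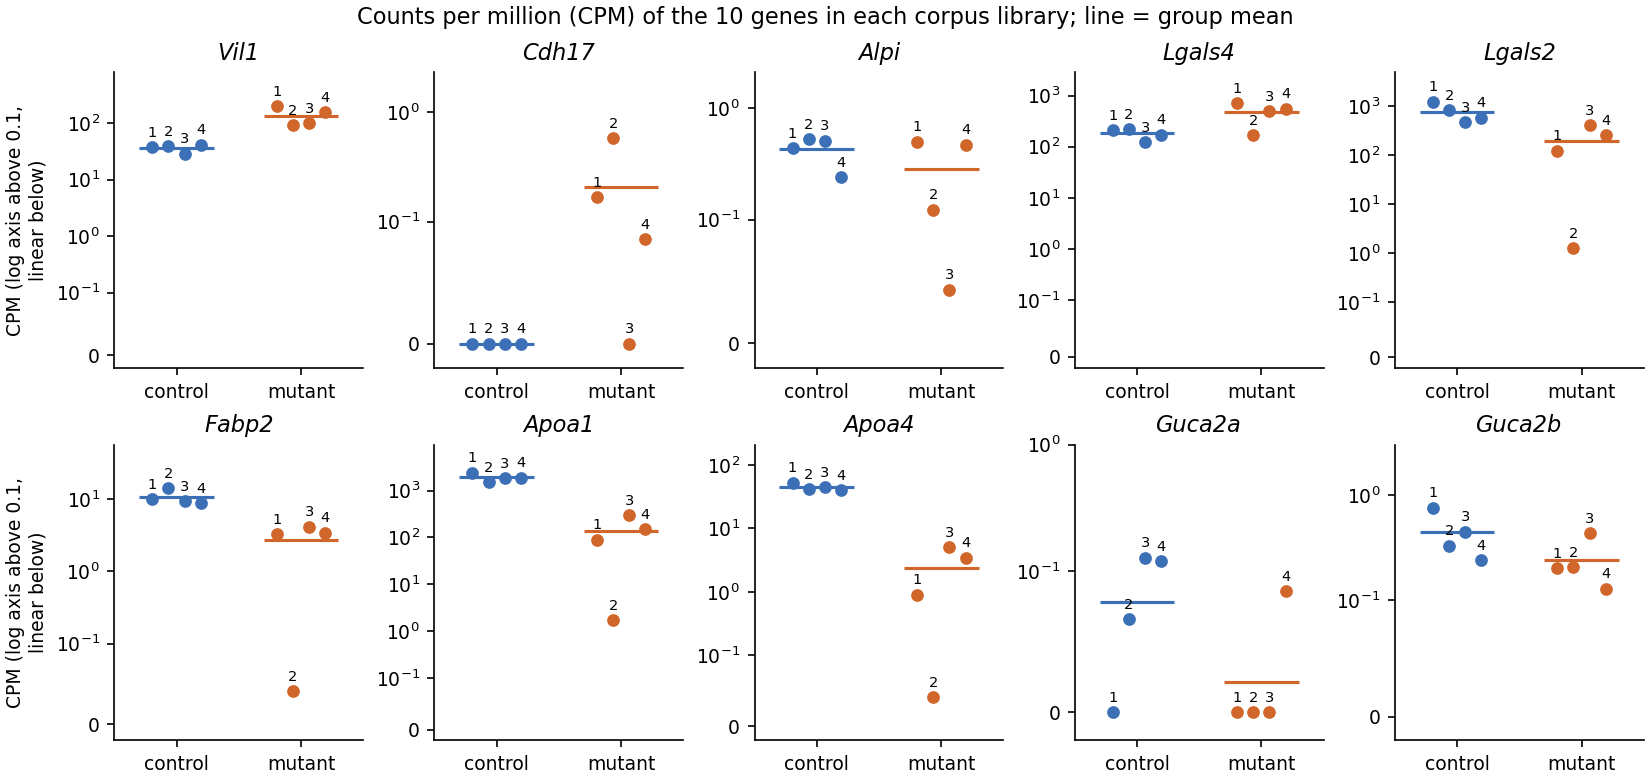
CPM of each of the 10 genes (1 panel per gene, axis logarithmic above 0.1 and linear below) in the 4 control and 4 mutant libraries, which are numbered, with a line at each group mean. All 4 mutants lie above all controls for Vil1 and below them for Lgals2, Fabp2, Apoa1 and Apoa4, mutant 2 lies far below the other mutants for these last 4 genes, and Cdh17 has reads only in mutants 1, 2 and 4.

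Structural genes of the brush border came first. Vil1, villin, which bundles and severs the actin of the microvillus (ENSMUSG00000026175, chromosome 1, 74409376 to 74435559, plus strand, GRCm38), was at 37.3, 39.4, 28.8 and 41.6 CPM in controls 1 to 4. Mutants 1 to 4 held 199.8, 92.5, 100.1 and 154.9 CPM. Every mutant was above every control, with mutants 1 and 4 highest and mutants 2 and 3 lowest. The means were 36.8 ± 5.62 and 136.8 ± 50.4 CPM (SD, n = 4), and Vil1 rose by 1.90 on the log2 scale (SE 0.27, edgeR adjusted p = 0.00325). That call held without any 1 library, with log2 fold changes of 1.66 to 2.04. It also held with column totals as library sizes (2.58), where the median of all genes moved to 0.76, and with libraries scaled on 6 general epithelial genes (1.46), where it moved to -0.28. Column totals called 59.5% of all genes higher and 4.55% lower, and epithelial scaling 2.40% higher and 14.3% lower.

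Cdh17, the liver-intestine cadherin of intestinal epithelial junctions (ENSMUSG00000028217, chromosome 4, 11758147 to 11817895), had no reads in the 4 controls. Mutants 1, 2 and 4 held 5, 14 and 2 reads and mutant 3 none. The exact 95% binomial interval (Clopper-Pearson) of the 14 reads in mutant 2 was 7.65 to 23.5 reads, and that of a count of 0 reached 3.69 reads. The limit set here for a count of 0 is 3 reads, or 0.179 to 0.198 CPM in the controls. Intervals and limits cover counting error only. Only mutants 1 and 2 were above the limit of 3 reads. Without a filter on low counts Cdh17 did not pass (edgeR adjusted p = 0.148).

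Alpi, the intestinal alkaline phosphatase of the brush border membrane (ENSMUSG00000079440, chromosome 1, 87098002 to 87101606), had 7, 8, 8 and 4 reads in controls 1 to 4. The mutants had 15, 3, 1 and 11. The groups overlapped, and a change was not detectable at this depth. Akp3, a near relative of Alpi, had no reads in any library, and Alpl, the tissue-nonspecific alkaline phosphatase, is described with the family relatives below.

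The 2 galectins among the 10, lectins that bind beta-galactosides on glycoproteins and glycolipids, differed from each other. Lgals4, galectin-4, which stabilises lipid rafts of the enterocyte's apical membrane (ENSMUSG00000053964, chromosome 7, 28833854 to 28841708), was at 212.9, 218.9, 122.9 and 172.2 CPM in controls 1 to 4. In mutants 1 to 4 it was at 719.0, 169.6, 500.3 and 557.8 CPM. Mutants 1, 3 and 4 lay above every control, and mutant 2 lay inside the control range. From 181.7 ± 44.3 to 486.6 ± 230.8 CPM (SD, n = 4), Lgals4 rose by 1.42 on the log2 scale (SE 0.41, edgeR adjusted p = 0.043). The call was lost without any 1 control or without mutant 1, 3 or 4 (adjusted p of at most 0.111), and without both squamous libraries (log2 fold change 1.26, adjusted p = 0.164), whereas without mutant 2 the rise was 1.71 (SE 0.20, adjusted p = 0.000145). Lgals6, which is a near-identical mouse copy of Lgals4, was not matched in the table, so reads shared between such copies could not be assessed and the level of Lgals4 is uncertain to that extent.

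Lgals2, galectin-2 (ENSMUSG00000043501, chromosome 15, 78850860 to 78855529), was at 1221, 813.4, 466.7 and 578.6 CPM in controls 1 to 4. Mutants 1 to 4 held 122.7, 1.27, 410.0 and 256.3 CPM. All 4 mutants were below all 4 controls, though mutant 3 came close to control 3, and mutant 2 held 31 reads where the other mutants held 3672 to 9509. The log2 fold change was -1.96 (SE 1.13) and did not pass (edgeR adjusted p = 0.245), nor did it without mutant 2 (-1.55, SE 0.50, adjusted p = 0.0522). Within each library the reads of Lgals4 per read of Lgals2 were 0.174 to 0.298 in controls. In mutants 1 to 4 they were 5.86, 133.8, 1.22 and 2.18, so the ratio was higher in 4 of 4 mutants. The exact permutation test of the log2 ratio, two-sided, gave p = 0.0286, the smallest that 70 assignments allow, and an adjusted p of 0.114 over the 4 ratios computed. The ratio was chosen after the values of both genes were seen, so this p adds no support for a change in either gene.

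Of the 3 members that act in fat uptake and export, Apoa1 and Apoa4 fell and Fabp2 was not called. Fabp2, the intestinal fatty acid binding protein (ENSMUSG00000023057, chromosome 3, 122895072 to 122899506), was at 9.80, 14.0, 9.26 and 8.62 CPM in controls 1 to 4. Mutants 1 to 4 were at 3.24, 0.0409, 4.10 and 3.39 CPM, the second of these resting on 1 read. All mutants were below all controls, which was also true, in either direction, of 30.3% of all genes tested. With all libraries the log2 fold change of -1.95 (SE 0.83) did not pass (edgeR adjusted p = 0.129). Without mutant 2 Fabp2 fell by 1.54 (SE 0.22, adjusted p = 0.000414). Of the 10 genes 2 were then higher and 3 lower, among all genes 15.2% and 18.3%.

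Apoa1, the main protein of high-density lipoprotein, made by liver and intestine (ENSMUSG00000032083, chromosome 9, 46228580 to 46230466), was at 2410, 1505, 1843 and 1887 CPM in controls 1 to 4. Mutants 1 to 4 held 89.1, 1.72, 300.7 and 150.7 CPM, the second of these from 42 reads. The highest mutant was far below the lowest control, and the mutants themselves spread widely around 135.6 ± 125.9 CPM (SD, n = 4). Apoa1 fell by 3.82 on the log2 scale (SE 1.11, edgeR adjusted p = 0.0448). The call was lost without any 1 control, mutant 1 or mutant 4 (adjusted p of at most 0.101), and without both squamous libraries (-4.59, adjusted p = 0.0903). Without mutant 2 Apoa1 fell by 3.41 (SE 0.42, adjusted p = 0.000484).

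Apoa4, an apolipoprotein that enterocytes secrete with dietary fat (ENSMUSG00000032080, chromosome 9, 46240696 to 46243459), was at 52.5, 41.8, 44.9 and 39.9 CPM in controls 1 to 4. Mutants 1 to 4 held 27, 1, 118 and 81 reads, or 0.902, 0.0409, 5.09 and 3.47 CPM. The order of the mutants, with mutant 3 highest and mutant 2 lowest, was that of Apoa1. Apoa4 fell by 4.24 on the log2 scale (SE 0.89, edgeR adjusted p = 0.0143), and the call held without any 1 library (changes of -4.94 to -3.85). Apoa1 and Apoa4 lie in 1 cluster, 10229 bases apart. Apoa1 had 36.0 to 47.3 reads per Apoa4 read in controls and 98.8, 42.0, 59.1 and 43.4 in mutants 1 to 4, a difference that did not pass (exact permutation test, two-sided, p = 0.229, adjusted p = 0.305 over the 4 ratios). Apoc3, which lies between them, had 0.0628 to 0.638 CPM in controls and no reads in mutants, and was named after its values were seen.

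**Figure D2:**
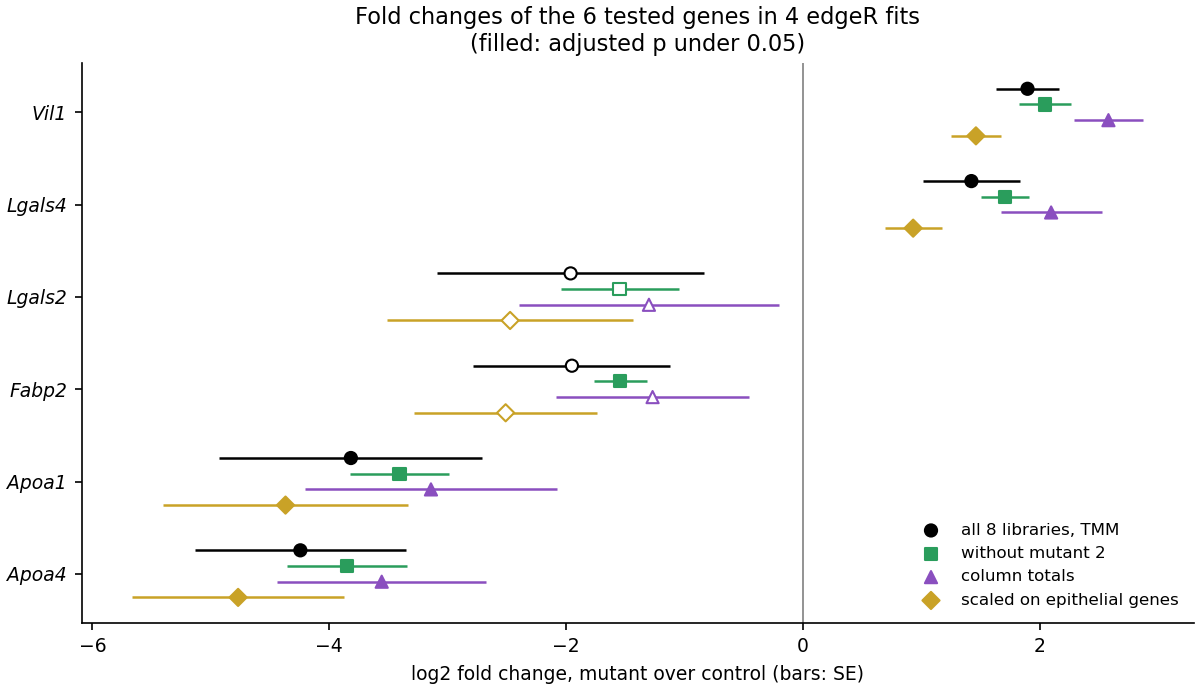
Log2 fold change, mutant over control, with its SE (bars), of the 6 tested genes in 4 edgeR fits: all 8 libraries with TMM scaling, without mutant 2, with column totals as library sizes and with libraries scaled on 6 general epithelial genes. Filled symbols passed an adjusted p of 0.05. No gene changes sign, Vil1, Lgals4, Apoa1 and Apoa4 are filled in all 4 fits, and Fabp2 is filled only without mutant 2. In fits not shown, such as those without any 1 control, Lgals4 and Apoa1 were not called.

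The 4 genes that lay below every control in every mutant were compared in sequence upstream of their RefSeq starts. The table of RefSeq promoters (GRCm38.p6) held 9 of the 10 genes, and Cdh17 had no entry. The 250 bases before the RefSeq start are printed for these 4, 5′ to 3′ on the strand of the gene, with matches in capitals.
Apoa1, chr9:46228380-46228629, plus strand: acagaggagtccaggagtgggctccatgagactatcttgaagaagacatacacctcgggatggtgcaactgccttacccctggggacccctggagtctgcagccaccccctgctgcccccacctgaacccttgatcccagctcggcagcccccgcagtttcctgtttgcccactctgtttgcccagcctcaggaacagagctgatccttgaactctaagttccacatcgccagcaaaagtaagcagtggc
Apoa4, chr9:46240594-46240843, plus strand: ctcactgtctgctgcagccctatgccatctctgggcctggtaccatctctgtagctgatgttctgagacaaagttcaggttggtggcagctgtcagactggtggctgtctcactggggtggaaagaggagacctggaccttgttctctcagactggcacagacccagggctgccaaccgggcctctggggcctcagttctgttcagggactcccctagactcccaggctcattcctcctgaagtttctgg
Lgals2, chr15:78855530-78855779, minus strand: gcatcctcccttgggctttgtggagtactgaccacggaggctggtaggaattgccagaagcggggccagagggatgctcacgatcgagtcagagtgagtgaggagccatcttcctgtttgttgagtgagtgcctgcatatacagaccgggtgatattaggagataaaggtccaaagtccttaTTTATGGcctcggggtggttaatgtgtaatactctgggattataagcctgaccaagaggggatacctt
Fabp2, chr3:122894822-122895071, plus strand: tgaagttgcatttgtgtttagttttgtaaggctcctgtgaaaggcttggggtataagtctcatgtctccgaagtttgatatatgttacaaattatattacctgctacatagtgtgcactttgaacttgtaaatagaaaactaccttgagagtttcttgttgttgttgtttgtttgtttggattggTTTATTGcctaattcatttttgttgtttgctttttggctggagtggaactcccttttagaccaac
Searched on both strands were TTTATNG (a pattern of CDX factors), CAAAGTCCA (HNF4), TGACGTCA and the shorter TGACG within it (CREB, a substrate of protein kinase A), AGGTCA (nuclear receptors) and TATAAA. The capitals are TTTATNG, which was found in Lgals2 and Fabp2 and is held by 9.81% of the 32851 promoter windows of this length. No other match fell in these 4 windows. CAAAGTCCA is held by 0.384% of windows, TGACGTCA by 1.55%, TGACG by 17.8%, AGGTCA by 14% and TATAAA by 12.4%. Of the other members, Alpi, which was hardly expressed, held CAAAGTCCA and TTTATNG, and on the minus strand TATAAA, which overlapped the latter. A match is a run of letters and not a site of binding, and a window without one says nothing of the factor. The windows of Apoa1 and Apoa4 run past the gene starts given above (46228580 and 46240696). Part of each window thus lies inside the gene by the annotation used for the counts.

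The 2 secreted ligands had at most 12 reads in any library. Guca2a, guanylin (ENSMUSG00000023247, chromosome 4, 119637704 to 119639471), and Guca2b, uroguanylin (ENSMUSG00000032978, chromosome 4, 119656607 to 119658954), activate the intestinal guanylate cyclase receptor to drive chloride and fluid secretion, and lie 17135 bases apart. Guca2a had 0, 1, 2 and 2 reads in controls and 0, 0, 0 and 2 in mutants, which is never above the limit of 3. Guca2b had 12, 5, 7 and 4 reads in controls 1 to 4 and 6, 5, 10 and 3 in mutants 1 to 4, with overlapping groups. Without a low-count filter neither passed (edgeR adjusted p = 0.459 and 0.42), and neither did Alpi (adjusted p = 0.64).

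Of their receptor pathway, a list of 5 genes, 3 rose and 2 were not called (edgeR, and likewise with DESeq2), with a median log2 fold change of 1.77 against 0.07 over all genes tested. The 3 that rose were also the only ones with an unadjusted p under 0.05. With epithelial scaling 2 were higher, and Prkg2 was not called (adjusted p = 0.079). The receptor Gucy2c averaged 6.10 ± 2.17 CPM in controls against 5.74 ± 2.5 in mutants (log2 fold change -0.09, SE 0.40, edgeR adjusted p = 0.893). Its effector kinase Prkg2 rose by 1.77 (SE 0.35), from 0.283 to 0.982 CPM. Controls held 4 to 5 reads of Prkg2 and mutants 19 to 29. Prkg2 was not called with the replicate block (edgeR adjusted p = 0.0547) or without both squamous libraries (0.0751). For the chloride channel gene Cftr, which went from 0.305 ± 0.242 to 90.3 ± 122.9 CPM, the rise was 8.20 (SE 1.38). Controls held 2 to 10 reads of Cftr, near the limit of 3 reads, so the size of this rise is uncertain. Mutant 2 held 271.4 CPM of Cftr and mutants 1, 3 and 4 held 11.1 to 62.4. When mutant 2 was left out Cftr rose by 6.61. Slc9a3, the sodium-proton exchanger of the brush border and the third gene, rose by 4.93 (SE 1.33, adjusted p = 0.035). It missed the threshold in fits that lacked control 1, 3 or 4 or mutant 4 (adjusted p up to 0.1), and without mutant 2 its rise was 3.45.

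Other microvillus genes also went both ways. Of 15 core and scaffold genes 11 were tested, and 2 rose, 3 fell and 6 were not called, with a median log2 fold change of -0.48 against 0.07 over all genes tested. Eps8, which caps and bundles actin at microvillus tips, rose from 36.8 ± 3.34 to 106.2 ± 27.8 CPM (log2 fold change 1.53, SE 0.21, edgeR adjusted p = 0.00277). Cdhr2, a protocadherin of the links between microvilli, rose by 1.55 (SE 0.37), while its partner Cdhr5 fell by 1.45 (SE 0.38), from 7.68 ± 1.09 to 2.81 ± 1.52 CPM. Slc9a3r1, the scaffold that tethers membrane proteins to ezrin, fell by 0.87 (SE 0.12), and Cobl, an actin nucleator, by 1.70 (SE 0.39). Cdhr2 missed the threshold in fits that lacked control 1, 2 or 3 (adjusted p up to 0.0665), Cobl in those that lacked control 1 or 3 or mutant 1 or 4 (up to 0.0586), and Cdhr5 in those that lacked any 1 control or mutant 1 or 3 (up to 0.0838). Cdhr2 was also not called with epithelial scaling (1.07, 0.0568) or without both squamous libraries (1.42, 0.111). With column totals Slc9a3r1 (-0.17, adjusted p = 0.279) and Cdhr5 (-0.75, 0.111) were not called. Cdhr5 was named after its values were seen. With column totals 4 genes of this list were higher and 1 lower, with epithelial scaling 1 and 5, and without mutant 2 they were 4 and 5. Without 1 of the remaining 7 libraries, 1 or 2 were higher and 1 or 2 lower.

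Most brush border hydrolases were barely present. Of 14 genes 6 were tested, and the disaccharidase Sis, a defining enterocyte gene, had no reads in any library. Lct, lactase, ranged from 0.192 to 0.718 CPM over the controls and from 0.0668 to 0.695 over the mutants. Enpep, glutamyl aminopeptidase, was the sole hydrolase called and fell by 2.00 (SE 0.42), from 5.73 ± 1.89 to 1.43 ± 0.67 CPM (edgeR adjusted p = 0.0138). None was higher, by edgeR, where 2 of the 6 had an unadjusted p under 0.05, and 1 was higher by DESeq2. Without mutant 2, 1 hydrolase was higher and 2 were lower, and without mutant 3, 1 was higher.

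In the list of fat absorption and lipoprotein assembly 11 of 13 genes were tested, and 1 rose, 1 fell and 9 were not called (median log2 fold change -0.13). Mogat2, the enzyme that rebuilds fat from monoacylglycerol in the enterocyte, rose from 0.82 ± 0.231 to 11.3 ± 9.33 CPM (log2 fold change 3.78, SE 0.61, edgeR adjusted p = 0.0054). Cd36, a fatty acid translocase that adipocytes, endothelium and macrophages also make, fell by 2.98 (SE 0.41). The direction within the list thus differed from gene to gene, as it did among the 10. With column totals 5 were higher and 1 lower, with epithelial scaling 1 and 3, and without mutant 2 or mutant 4, 2 were lower.

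Of 16 absorptive transporters 8 were tested, and 3 rose and 1 fell. Slc5a1, the sodium-glucose transporter, rose from 2.48 ± 0.579 to 6.79 ± 1.01 CPM (log2 fold change 1.45, SE 0.25, edgeR adjusted p = 0.00636). Slc10a2, the ileal bile acid transporter, had 10 to 183 reads in mutants and at most 3 in controls, and rose by 5.49 (SE 1.49, adjusted p = 0.0322). That call was lost without any 1 control (adjusted p of at most 0.0939), and without mutant 2, which held the 183 reads, the rise was 3.76. Slc3a1, a subunit of the cystine transporter, fell by 1.73 (SE 0.47) from 0.956 CPM. Leaving out control 1, 3 or 4, or mutant 1 or 4, ended that call. Slc9a3 was the remaining gene that rose. Without 1 library the numbers higher were 1 to 3 and lower 0 to 2, with column totals 4 and 0, and with epithelial scaling 2 and 1, where Slc5a1 was not called (1.11, adjusted p = 0.103).

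Relatives of the 10 genes by family numbered 24, of which 23 were in the table and 16 were tested, and 3 rose and 2 fell (median log2 fold change 0.06). Capg, a gelsolin-family actin capper related to villin, rose by 1.2 (SE 0.25, edgeR adjusted p = 0.0135), and Gsn, gelsolin, fell by 1.59 (SE 0.38, adjusted p = 0.022). Avil, advillin, a relative of villin and a tuft cell gene, also rose, by 0.92 (SE 0.27, adjusted p = 0.0458), with overlapping groups and no call when any library but control 2 or mutant 2 was left out, or with epithelial scaling (0.53, 0.0731). Alpl rose by 2.5 (SE 0.65, adjusted p = 0.0302), with 73.2 CPM in mutant 2 and 9.79 to 23.8 in mutants 1, 3 and 4. Without mutant 2 Alpl rose by 1.53, and without any 1 control or mutant 4 it was not called (adjusted p up to 0.0867), nor with epithelial scaling (2.47, 0.0754) or without both squamous libraries (2.83, 0.0581). Fabp4, the adipocyte fatty acid binding protein, fell by 1.42 (SE 0.30). With column totals Gsn and Fabp4 lost their calls (adjusted p = 0.0552 and 0.0693), where the list had 4 higher and none lower, with epithelial scaling 1 was higher and 3 lower, and without mutant 2 there were 5 and 5. Gsn also missed the threshold when control 1, 2 or 3 was left out, and without any 1 control the list had 1 or 2 calls in each direction.

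Transcription factors known to drive intestinal genes were not called. None of 8 tested passed the edgeR test, 1 had an unadjusted p under 0.05, and DESeq2 called none of them either. Their median log2 fold change was 0.16. Hnf4a averaged 132.6 ± 16.0 CPM in controls against 141.4 ± 59.9 in mutants (log2 fold change 0.09, SE 0.34). Gata6 had the smallest p of the list (log2 fold change -0.77, SE 0.32, adjusted p = 0.127). Without mutant 2, 3 were higher and 2 lower, among them Gata6 (-0.51, adjusted p = 0.0138). With column totals 4 were higher, and with epithelial scaling 2 were lower.

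**Figure D3:**
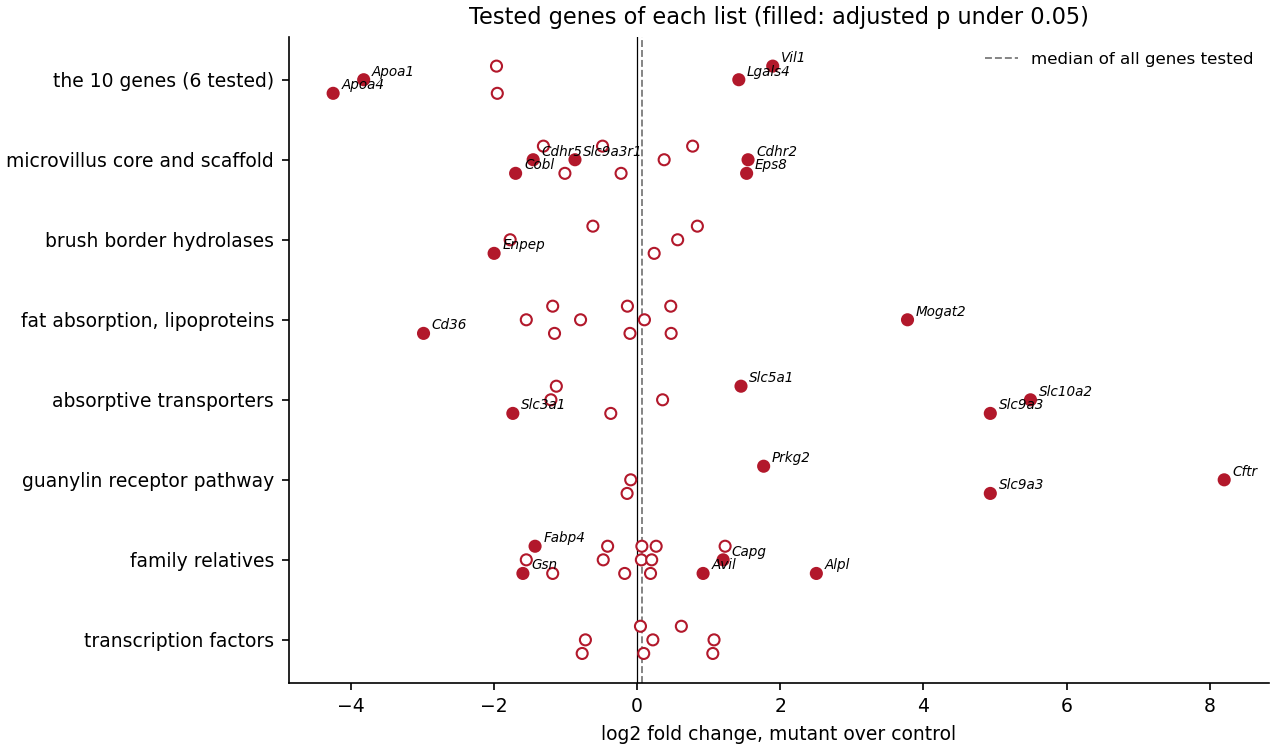
Log2 fold change, mutant over control, of every tested gene of the 10 and of the 7 lists of related genes (1 row per list, vertical offsets only separate points), filled where the adjusted p was under 0.05, with a dashed line at the median of all genes tested (0.07). Called genes lie on both sides of 0 among the 10 genes, the microvillus genes, fat absorption, the transporters and the relatives, and none of the transcription factors is filled.

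Markers of other cell types moved along with these genes, and their part in the results was not tested. All 5 tuft cell markers rose (2 to 5 of them without 1 library), their summed level going from 114.8 to 245.3 CPM in controls to 279.7 to 506.0 in mutants, beside the rise of Vil1. Most of that sum was Avil (means of 147.0 CPM in controls and 278.6 in mutants), described above with the family relatives. All 4 mucous neck cell markers rose as well (3 or 4 without 1 library, and 2 without both squamous libraries), with sums of 2387 to 6202 CPM in controls and 9105 to 26824 in mutants. Of 6 general epithelial markers 2 rose, Epcam (log2 fold change 1.21, SE 0.14, edgeR adjusted p = 0.00178) and Cldn7. With libraries scaled on these 6 genes Epcam was not called (0.92, adjusted p = 0.0779). Per unit of Epcam, Vil1 was at 0.177 to 0.252 in controls and 0.581, 0.193, 0.297 and 0.386 in mutants 1 to 4, so mutant 2 lay inside the control range. That difference did not pass (exact permutation test, two-sided, p = 0.143, adjusted p = 0.286 over the 4 ratios). Lgals4 per unit of Epcam overlapped between the groups (p = 0.886 by the same exact test, adjusted p = 0.886). Epcam was chosen as the denominator after its values were seen. In mutant 2 Epcam was at its highest of all libraries (478.0 CPM), as was Cldn7 (80.4 CPM). Cdh1, Krt8, Krt18 and Krt19 were at their lowest there (214.5, 471.1, 375.8 and 291.5 CPM). Ratios to these genes were not computed, so the 2 results above hold for Epcam only.

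Beside the falls of Apoa1 and Apoa4, the parietal markers fell in 3 of 5 genes and the chief cell markers in 3 of 4. Their summed levels were lowest in mutant 2, at 246.9 and 848.7 CPM, against at most 3598 and 39910 CPM in any mutant. Pit cell markers, of which edgeR called none of 4 (2 had an unadjusted p under 0.05, and DESeq2 called 2 lower), summed to 4277 CPM in mutant 2 and at most 33275 in the mutants. Hepatocyte markers summed to 131.6 to 242.5 CPM in controls and 1.35 to 79.5 in mutants, with 2 of 4 tested lower. Nearly all of that sum was Ttr, and Alb, the defining hepatocyte gene, was at 1.00 to 2.04 CPM in controls and 0.0818 to 3.79 in mutants. Apoa1 was at 1505 CPM or more in every control. Immune markers summed to 844.1 CPM in mutant 2 and to 97.9 to 107.3 in controls, and all 6 smooth muscle markers fell. Of the intestinal goblet cell markers Fcgbp rose and Tff3 fell, and Muc2 was not called. Of 4 Paneth cell markers the defensins Defa24 and Defa30 had no reads in any library, Lyz1 was not called, and Mmp7 rose (24 to 2896 reads in mutants, at most 1 in controls, edgeR adjusted p = 0.0283). In that list 0 or 1 gene was higher without 1 library, and 0 by DESeq2. Endocrine markers fell in 4 of 6 genes, and their sum was lowest in mutant 2 (104.6 CPM). The sum of the general epithelial markers was also lowest in mutant 2, at 1911 CPM against 4680 or more in every other library.

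**Figure D4:**
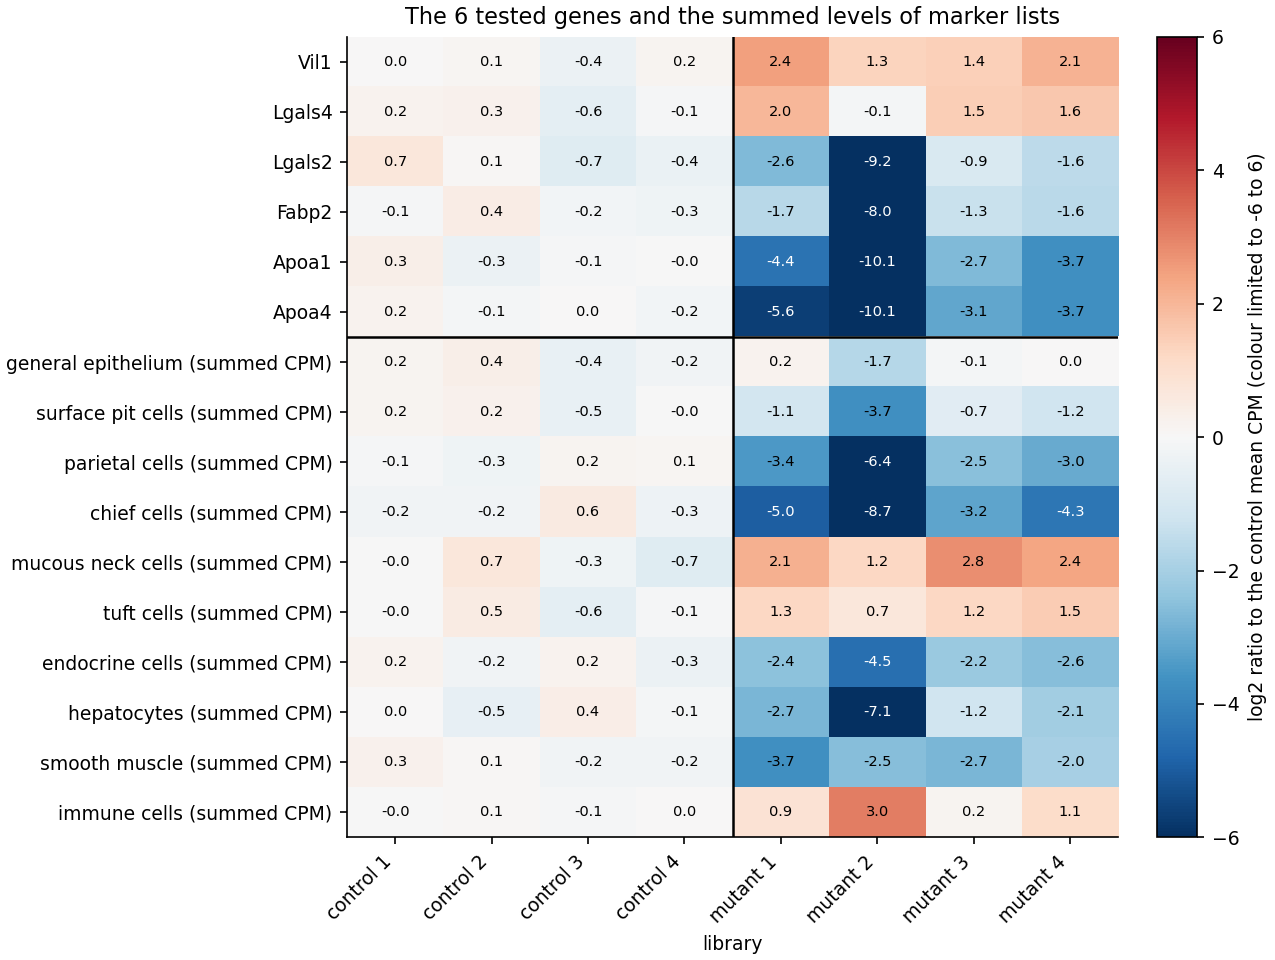
Log2 ratio of each library's CPM to the mean of the 4 controls for the 6 tested genes (above the line) and for the summed CPM of 10 marker lists (below it), with colours limited to -6 to 6. Lgals2, Fabp2, Apoa1 and Apoa4 have their lowest values in mutant 2. The pit, parietal, chief, endocrine, hepatocyte and general epithelial sums are also lowest there. Vil1, Lgals4, neck and tuft cell rows are at their highest in other mutants.

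The genes with the most similar profiles were found by the root mean square distance, over the 8 libraries, between log2(CPM + 0.5) profiles, each centred on its control mean, among 14644 other genes with a mean of at least 1 CPM. Nearest to Vil1 were Gpnmb, a glycoprotein gene of macrophages and other cells (distance 0.209), and the matrix metalloproteinase gene Mmp28 (0.226). Nearest to Lgals4 were Tfrc, the transferrin receptor (0.195), and Adgrg6, an adhesion receptor gene (0.242). Apoa1 was closest to 1810010D01Rik (0.156), which went from 1170 to 88.0 CPM, and then to the potassium channel gene Kcnj16 (0.499), which did not pass (edgeR adjusted p = 0.0881). Apoa4 was closest to Hamp2, a hepcidin gene (0.419), and to Rdh7, a retinol dehydrogenase gene (0.529). None of the 4 called genes had another of the 10 among its 2 nearest. With 14644 genes compared, that would be likely for most genes, so nothing is drawn from it.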

How the data were processed

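The authors deposited raw read counts and FPKM values per Ensembl gene for 8 corpus libraries. The submitters' processing notes list CASAVA, fastp, STAR 2.5 and featureCounts, with no role for any of them. Build and strand setting: not given in the sources used here. Overlapping, antisense and near-identical genes are therefore uncertain. Of 54532 genes 54409 were shared with GENCODE M21 (GRCm38), and 53499, with all 10 genes described, had the same start and end. The column headed SCI was read as SC1. Per the series' design text the libraries are biological replicates, and every pair within a group differed beyond sampling noise (chi-square of at least 14.2 per degree of freedom).

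Counts passing filterByExpr were scaled by TMM and tested with the robust quasi-likelihood test of edgeR 4.0.16 (R 4.3.3), with Benjamini-Hochberg adjustment over all genes tested at 0.05. This test gave every adjusted p printed for a gene, except where DESeq2 or an FPKM fit is named. The SE is the fitted coefficient divided by the square root of F. Intervals are 95% and exact. The procedure was tested on simulated data. Alternatives were DESeq2 1.42.0, RLE size factors, column totals, scaling on 6 epithelial genes, no or a stricter filter (4 libraries with a CPM of 1 or more), a replicate block, each library left out, both squamous libraries left out, a threshold of 0.01, and limma 3.58.1 on log2 FPKM (pseudocount 1 or 0.1, genes with a mean of 0.5 FPKM or more, or all genes).

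The members, lists and alternatives were chosen with earlier results of these data known. The rule named all 10 genes, Prkaca, the 2 called genes with the smallest p in each direction of each pathway list (or, with no call, the 1 with the smallest p), and the 2 nearest profiles of each called member. Ratios, Avil, Cdhr5, Cldn7, Gucy2c, Hnf4a, Epcam and Slc9a3 were chosen after their values were seen. 1 listed gene is not reported here.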

Additional observations from a re-analysis of the deposited data

Results flagged for a closer look

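In 48 groups of 4 libraries (27 genes), the highest or lowest library was compared with the rest by its gap to the nearest library over the group's range. The gap passed Dixon's 95% critical value for 4 samples in 2 groups, and chance alone passes about 1 in 20. Both are mutant 2. Fabp4, the adipocyte fatty acid binding protein, was at 58.2 CPM (1424 reads) in mutant 2 and 24.2 to 29.5 in the other mutants, a gap of 0.845 of the range. Slc10a2, the ileal bile acid transporter, was at 7.48 CPM (183 reads) in mutant 2 and 0.431 to 1.10 in the other mutants, a gap of 0.905 of the range.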

How the results depend on the processing

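No value changed sign among those called. Genes higher, 1489 with all libraries, numbered 2309 with DESeq2, 9443 with column totals, 380 with epithelial scaling, 747 with the replicate block, 587 without both squamous libraries, 827 with log2(FPKM + 1) unfiltered and 380 at a threshold of 0.01. Genes lower, 1719, numbered 722 with column totals, 1077 with the block, 823 without the squamous libraries and 667 at 0.01. The share of calls that were higher was 46.4%, and 92.9% with column totals, 14.3% with epithelial scaling and 36.3% at 0.01. Without 1 library, 665 to 2447 genes were higher and 1018 to 2953 lower, and 1 to 2 of the 10 genes were higher and 1 to 3 lower. Of the 10, 1 was higher with no filter, the block, the squamous libraries left out, each FPKM fit and the threshold of 0.01. 1 was lower with no filter, the block, the squamous libraries left out and log2(FPKM + 1) unfiltered, and 0 at 0.01. Lgals4 (1.42) missed the threshold with no filter (1.44, adjusted p = 0.0649), the block (1.31, 0.125), the squamous libraries left out (1.26, 0.164), log2(FPKM + 1) filtered (1.27, 0.0829) and unfiltered (1.27, 0.136), and log2(FPKM + 0.1) (1.28, 0.0782). Apoa1 (-3.82) missed it with no filter (-3.80, 0.112), the block (-4.68, 0.081), the squamous libraries left out (-4.59, 0.0903) and log2(FPKM + 1) unfiltered (-4.99, 0.0616). Fabp2 passed with log2(FPKM + 1) filtered (-1.85, 0.0379). The cause was not tested. Without 1 library the log2 fold changes ran from 1.66 to 2.04 for Vil1, 1.17 to 1.71 for Lgals4, -2.60 to -1.55 for Lgals2, -2.22 to -1.54 for Fabp2, -4.57 to -3.41 for Apoa1 and -4.94 to -3.85 for Apoa4. Vil1 and Apoa4 passed the 0.05 threshold in every alternative fit, and Lgals2 in none. No pairing of the libraries by replicate number was detected: same-numbered deviations correlated at 0.058, -0.0909, 0.0624 and 0.00346, and only replicate 1 correlated best with its own number. With 4 libraries per group this cannot exclude a pairing, and control 3 and mutant 3 both held squamous transcripts. Of the counts of calls in the other lists, 688 stayed within 1.5 times or remained at 0, and 152 moved. Lists with no call in a direction add to the 688, which therefore do not measure how stable the calls were. Depth limits Cdh17, Alpi, Guca2a and Guca2b, where 3 reads are 0.179 to 0.198 CPM in controls and 0.1 to 0.129 in mutants.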

Other observations

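Some intestinal genes outside the 10 were highest in mutant 2, the library that held 14 reads of Cdh17, and were picked after their values were seen. Mgam, the maltase-glucoamylase of the brush border, was at 16.0 CPM in mutant 2 and at most 0.65 in the other libraries. Isx, an intestinal homeobox gene, was at 1.02 CPM there and had no reads in the other libraries. Mmp7 and Lyz1, matrix metalloproteinase and lysozyme genes of Paneth cells, were at 118.4 and 48.8 CPM in mutant 2, and at most 2.04 and 1.91 CPM in the other libraries. The Paneth cell defensins Defa24 and Defa30 had no reads in mutant 2. Lyz2, the macrophage lysozyme gene and a near-identical relative of Lyz1, was at 647.6 CPM there and 79.9 to 179.4 in the other libraries, and immune markers summed to 844.1 CPM, so the value of Lyz1 is uncertain. In the same library Apoa1, Apoa4, Fabp2 and Lgals2 were at 1.72, 0.0409, 0.0409 and 1.27 CPM, the lowest of all 8. Other genes of the intestinal lists, also picked after their values were seen, were lowest there too. Rbp2 was at 0.409 CPM (40.5 to 74.4 in controls) and Anpep at 43.0 (217.1 to 415.3). Slc2a5 was at 1.23 CPM (20.6 to 26.9 in controls) and Hnf4a at 53.8 (112.0 to 147.7). Sis had no reads in any library.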
